A study of Homo sapiens with 4 samples.

Results

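Genes of mitochondrial protein import and of the CHCHD family were read in 4 RNA-seq libraries labelled NB4, the name of a cell line from human acute promyelocytic leukemia. Members were taken by name from the expression table: every symbol that starts with TIMM, TOMM or CHCHD, together with GFER, SAMM50, MTX1, MTX2, PAM16, DNAJC19, GRPEL1, PMPCA and PMPCB. This gave 43 of the 16504 gene symbols in the table. The rule uses names and no measured value, though it was set with earlier results of these data known. The 2 control libraries carry the label NC, with CEBPG present, and the 2 knockdown libraries carry the label CEBPG3. CEBPG encodes a leucine-zipper transcription factor that pairs with ATF4. In the study, short hairpin RNAs were delivered by a lentiviral vector into cells that were then kept under selection, so each group is a selected population of a cell line and not a set of clones. The labels do not say which hairpin the knockdown libraries carry, nor whether replicates came from separate cultures, so p-values measure the spread between these libraries, which may be technical.

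Nearly all mitochondrial proteins are encoded in the nucleus, made in the cytosol and carried into the organelle. They enter through the TOM complex of the outer membrane and are then handed on, to the SAM complex for barrel-shaped outer membrane proteins, to the small TIM chaperones and the TIM22 complex for carrier proteins, or to the TIM23 complex and its motor for proteins with a cleavable presequence. Small cysteine-rich proteins of the intermembrane space take another route: CHCHD4, also named MIA40, traps them by oxidising their cysteines, and GFER reoxidises CHCHD4. Many CHCHD proteins are themselves of this cysteine-rich kind.

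The targeted gene, CEBPG, had 17.1 and 18.1 FPKM in the controls against 6.91 and 7.96 FPKM after knockdown (log2 fold change -1.14, limma, adjusted p = 0.000836), so 42.2% of the mean control level was left. FPKM divides the fragments of a transcript by its length and by the mapped total of the library, and read depth was not known. FPKM summed to between 345340 and 366139 per library, with the members holding 0.744% to 0.757% of it in the controls and 0.705% to 0.716% in the knockdown libraries. The markers went against the label, so the identity of the libraries as NB4 is in question. Of the 12 myeloid markers read, none was at 0 in any library. LYZ (15.0005 to 20.098 FPKM), SPI1 (15.2 to 17.2), CD33 (4.31 to 9.77) and FUT4 (6.74 to 7.86) were present, whereas the granule genes PRTN3 and AZU1 stayed between 0.0897 and 0.57 FPKM and the median of the 12 was 0.44 to 0.579 FPKM. The 12 summed to 50.4 to 53.2 FPKM, while 14 erythroid markers summed to 8527 and 8060 FPKM in the controls and to 9526 and 8968 FPKM in the knockdown libraries, led by the fetal globin gene HBG2. The part of this difference in the results below was not tested, and the erythroid genes were high in all 4 libraries.

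On CEBPG knockdown, CHCHD4 fell to 36.2% of its control level, the lowest value among the members, and TOMM40, the channel of the outer membrane, fell to 64.6%. Of the 43 members, 42 reached a mean of 1 FPKM and were tested with limma on log2(FPKM + 1), and a gene was called at an adjusted p under 0.05 over all 10968 genes tested. Of the 42, 9 fell, which is 21.4% against 9.99% of all genes tested, and 2 rose, which is 4.76% against 10.9%. Those that fell were CHCHD4, MTX1, TOMM40, CHCHD3, CHCHD7, TIMM10, SAMM50, TOMM7 and TIMM9, and those that rose were PMPCA and TOMM34. In bulk RNA, fewer cells of a type and less RNA per cell cannot be told apart.

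Most members moved little. The 31 members that were not called lay between -0.24 and 0.41 in log2 fold change, and 30 of them were within 0.25 of 0. The median log2 fold change over the 42 members was -0.063, against 0.015 over all genes tested, with 26 members below 0 and 16 above. Groups did not overlap in 29 of the 42 members (69.0%) against 64.8% of all genes tested, a share close to the background. Without knockdown 2 the median was 0.0049 and 2 members were called lower (CHCHD4 and TOMM40), without knockdown 1 it was -0.081 with 5 called lower, without control 1 it was -0.0022 with 6 called lower, and without control 2 it was -0.11 with 8 called lower and 3 higher. Over all genes tested, 439 of 10947 were lower without knockdown 2, 415 of 10941 without knockdown 1, 716 of 10968 without control 1 and 948 of 10986 without control 2, so that without knockdown 2 the members were close to the background. Among 81 mitochondrial ribosomal protein genes, read for comparison, 11 were lower (13.6%) and 3 higher (3.70%), with a median of -0.038. The difference between these shares was not tested.

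**Figure D1:**
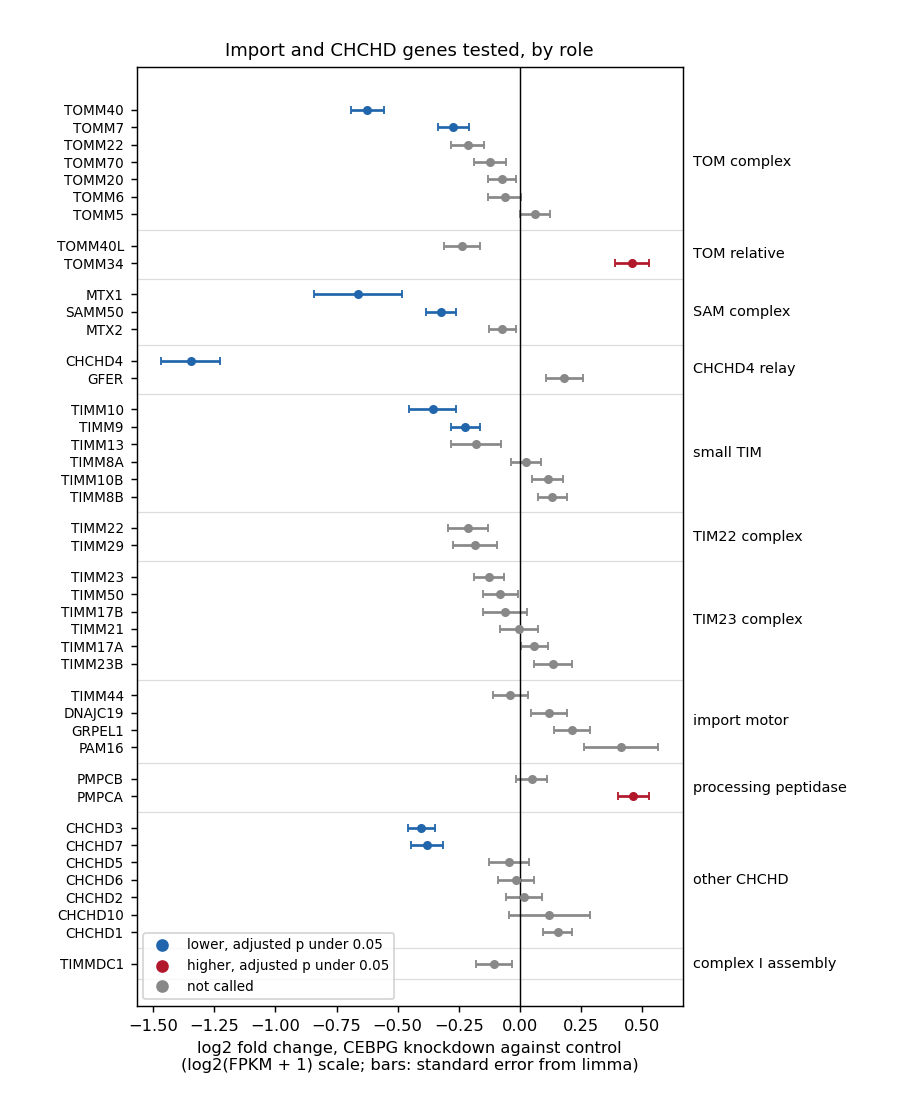
Log2 fold change of the 42 tested import and CHCHD genes, CEBPG knockdown against control on the log2(FPKM + 1) scale, grouped by role, with bars for the standard error from limma. CHCHD4 stands at -1.35, apart from MTX1 at -0.66 and TOMM40 at -0.62, while the 6 TIM23 genes lie between -0.13 and 0.13.

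CHCHD4, the oxidoreductase of the intermembrane space route, lies on chromosome 3 at 14112077 to 14124870 on the minus strand (GRCh38, GENCODE 44). It was at 18.1 and 16.9 FPKM in the controls against 7.28 and 5.41 FPKM after knockdown. Both knockdown libraries lay below both controls, and the gap between the groups was wider than the spread within either. The control mean was 17.5 ± 0.838 FPKM (SD, n = 2) and the knockdown mean 6.34 ± 1.32 FPKM (SD, n = 2). This is a log2 fold change of -1.35 (standard error 0.121, limma, adjusted p = 0.00146), and it was the only called member past an absolute value of 1. Over 12 fits of gene totals the value ranged from -1.53 to -1.16 and the gene was called in each. The members next to it in log2 fold change were MTX1, TOMM40, CHCHD3, CHCHD7 and TIMM10, at distances of 0.68 to 0.99.

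The 2 listed CHCHD4 transcripts were lower together. NM_001098502, which held 82.5% of the CHCHD4 signal, was at 15.3 and 14.4 FPKM in the controls against 5.37 and 4.32 FPKM after knockdown. NM_144636 was at 2.77 and 2.58 FPKM in the controls against 1.90 and 1.09 FPKM after knockdown. Neither was called when transcripts were tested in place of genes, where the adjusted p of NM_001098502 was 0.0587 (limma) and no transcript of any member was called.

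GFER, the sulfhydryl oxidase that returns CHCHD4 to its oxidised form, was not called. It was at 17.7 and 15.8 FPKM in the controls against 19.7 and 18.4 FPKM after knockdown. The knockdown libraries were the higher ones, by 0.18 on the log2 scale (standard error 0.077, limma, adjusted p = 0.137), and the value was 0.26 without control 1 and 0.10 without control 2, not called in either. In the control libraries the mean levels of CHCHD4 and GFER were close, at 17.5 and 16.7 FPKM, which are per-length values and can be set side by side.

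Promoter windows of RefSeq (250 bases before to 50 after the annotated start, GRCh38.p14) were found for 39 of the 43 members, 10 of the 11 called ones among them, and were searched on both strands for 3 short motifs. Only 1 window was read for each symbol, so other starts of a gene were not searched. The site of NRF1, a regulator of nuclear genes for mitochondrial proteins, was searched as GCGC, then any base, then TGCGC. It was found in 7 of the 39 windows (17.9%), against 6.29% of all 27303 windows and 13.1% of those of tested genes. The 7 were CHCHD4, TOMM40, TOMM7, TOMM34, PAM16, TIMM29 and TOMM20, of which 3 fell, 1 rose and 3 were not called. The CHCHD4 window held the site at 2 places, which are capitalised in its stretch of 91 bases from base -160 to base -70 before the start (chr3:14124940-14125030, minus strand). It is shown because CHCHD4 changed most. TOMM7, which fell, and TOMM34, which rose, each held 1 site at bases -14 to -5, and their last 60 bases are shown for comparison (chr7:22822850-22822909 and chr20:44960398-44960457, both minus strand).
CHCHD4: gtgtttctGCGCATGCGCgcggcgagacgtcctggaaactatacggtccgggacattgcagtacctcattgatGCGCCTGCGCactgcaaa
TOMM7: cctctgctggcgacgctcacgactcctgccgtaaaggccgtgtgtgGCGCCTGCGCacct
TOMM34: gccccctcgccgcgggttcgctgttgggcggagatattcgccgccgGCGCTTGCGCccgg

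The C/EBP-ATF element, a composite site for C/EBP and ATF4 proteins, was searched as TGATGNAA. It was found in none of the 10 windows of called members and in 2 of the 39 member windows (5.13%), against 3.67% of all windows and 1.49% of those of tested genes. These 2 belonged to PMPCB and TIMM22, neither of them called. The TIMM22 stretch from base -120 to base -40 is shown with its match, which reads on the other strand, in capitals (chr17:997009-997089, plus strand). A match is a description of the letters, and its absence here says nothing of sites outside these windows.
TIMM22: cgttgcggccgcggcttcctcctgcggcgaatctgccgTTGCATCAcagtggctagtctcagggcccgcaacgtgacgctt

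At the outer membrane, TOMM40 fell and TOMM7 fell, while the other 5 subunits of the TOM complex were not called. Of all genes tested, 9.99% fell. TOMM40 forms the channel through which nearly all imported proteins pass. It was at 144.4 and 131.9 FPKM in the controls against 91.8 and 86.6 FPKM after knockdown, without overlap. The control mean was 138 ± 8.87 FPKM (SD, n = 2) and the knockdown mean 89.2 ± 3.72 FPKM (SD, n = 2), a log2 fold change of -0.62 (standard error 0.068, limma, adjusted p = 0.00252), and the call held in all 12 fits of gene totals. Its 3 transcripts were all lower, at -0.56 for NM_001128916, -0.73 for NM_001128917 and -0.49 for NM_006114 on the log2(FPKM + 1) scale. TOMM7, a small subunit that also serves in holding the kinase PINK1 at the membrane, was at 92.3 and 92.5 FPKM in the controls against 79.5 and 73.3 FPKM after knockdown. Its log2 fold change was -0.27 (limma, adjusted p = 0.0252), and it was not called without knockdown 1 (0.0794) or without knockdown 2 (0.187).

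The CCAAT box, the pentamer CCAAT, was found in 14 of the 39 member windows (35.9%), against 35.7% of all windows and 37.8% of those of tested genes. TOMM40 held it at 5 places in the orientation of the gene, which is the reason its stretch of 201 bases from base -240 to base -40 is shown (chr19:44891014-44891214, plus strand), with each match in capitals. The same stretch holds the NRF1 site of TOMM40, left in lower case. Of the other called members, CHCHD3 and SAMM50 held the CCAAT box at 1 place each. TIMM17A, which was not called, held the box at as many places as TOMM40, over both orientations.
TOMM40: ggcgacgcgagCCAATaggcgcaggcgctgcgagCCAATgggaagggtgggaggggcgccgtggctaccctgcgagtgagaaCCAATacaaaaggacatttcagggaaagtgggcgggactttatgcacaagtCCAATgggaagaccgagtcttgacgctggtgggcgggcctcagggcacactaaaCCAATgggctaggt

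The other 5 subunits of TOM are receptors and small subunits. TOMM5 had the highest log2 fold change in the complex and was at 200.7 and 191.7 FPKM in the controls against 210.01 and 199.2 FPKM after knockdown (log2 fold change 0.060, limma, adjusted p = 0.509), and its groups overlapped. The receptors TOMM20, TOMM22 and TOMM70 had log2 fold changes of -0.075, -0.21 and -0.12, with TOMM22 at an adjusted p of 0.064 (limma) and called in 4 of the 12 fits of gene totals. TOMM6, the subunit with the highest level (245.1 to 264.4 FPKM in the controls), had a log2 fold change of -0.063. Summed over the 7 subunits, TOM transcripts were at 935.5 and 884.2 FPKM in the controls against 844.4 and 805 FPKM after knockdown.

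Of the genes named after TOM but outside the complex, 1 was called. TOMM34, a cytosolic co-chaperone of HSP70 and HSP90, rose from 24.6 and 23.3 FPKM to 31.7 and 34.8 FPKM. Its log2 fold change was 0.46 (standard error 0.070, limma, adjusted p = 0.00689), and it was called in all 12 fits of gene totals. TOMM40L, a paralog of TOMM40, was at 9.19 and 8.41 FPKM in the controls against 7.36 and 7.27 FPKM after knockdown (-0.24, limma, adjusted p = 0.0643), called in 4 of the 12 fits. TOMM20L was the member not tested, at 0.0787 to 0.27 FPKM, and it shares exon bases with TIMM9 on the other strand.

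The SAM complex inserts barrel proteins into the outer membrane, and 2 of its 3 genes fell, where 9.99% of all genes tested fell. SAMM50, the core subunit, was at 37.2 and 35.0 FPKM in the controls against 28.6 FPKM in both knockdown libraries (-0.32, limma, adjusted p = 0.0137). It was not called without knockdown 1 (0.0860) or without knockdown 2 (0.0793). MTX1, a metaxin, was at 8.61 and 8.07 FPKM in the controls against 6.29 and 3.77 FPKM after knockdown. Its knockdown libraries were below the controls but spread widely. The log2 fold change of MTX1 was -0.66 (standard error 0.181, limma, adjusted p = 0.0436), and it was -0.36 without knockdown 2 (adjusted p = 0.0721) and was also not called without control 1 (0.104) or control 2 (0.0793). MTX1 has a pseudogene copy nearby, which makes its value less certain. MTX2, its partner, was at 49.2 and 50.6 FPKM in the controls against 47.5 and 47.3 FPKM after knockdown (-0.073, limma, adjusted p = 0.38).

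**Figure D2:**
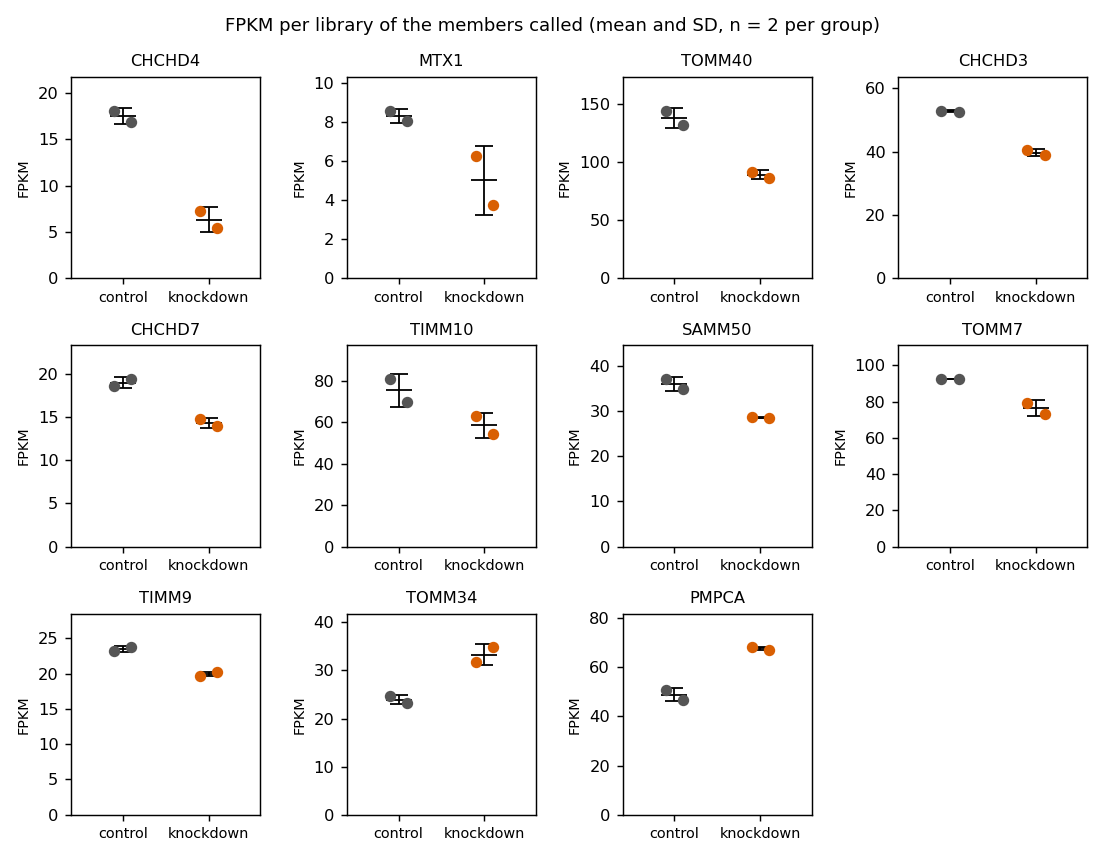
FPKM in each library of the 11 members called, with dots for libraries, bars for the mean and SD (n = 2 per group) and axes that start at 0. In each panel both knockdown libraries lie on the same side of both controls, and MTX1 shows the widest knockdown spread relative to its level, at 6.29 and 3.77 FPKM.

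Small TIM proteins are chaperones of the intermembrane space that are folded by CHCHD4, and the 6 genes split. TIMM9 and TIMM10, which together form the chaperone ring for carrier proteins, fell, where 9.99% of all genes tested fell. TIMM10 was at 80.9 and 69.8 FPKM in the controls against 62.9 and 54.3 FPKM after knockdown (-0.36, limma, adjusted p = 0.0423). TIMM9 was at 23.2 and 23.7 FPKM in the controls against 19.7 and 20.2 FPKM after knockdown (-0.22, limma, adjusted p = 0.039). Neither call was stable: TIMM10 was not called without control 1 (0.107), knockdown 1 (0.0606) or knockdown 2 (0.205), and TIMM9 was not called without any of the 4 libraries in turn (0.0608 to 0.194). TIMM8B, at the other end, was at 69.4 and 65.8 FPKM in the controls against 75.6 and 72.7 FPKM after knockdown (0.13, limma, adjusted p = 0.161). TIMM13, TIMM8A and TIMM10B were at -0.18, 0.024 and 0.11. Libraries were made with a kit that does not mark strand, and 30.1% of the TIMM8B exon bases are shared with NKAPD1 (11.6 to 13.99 FPKM) on the other strand. TIMM9 shares 12.3% of its exon bases with TOMM20L (0.0787 to 0.27 FPKM) and 9.9% with KIAA0586 (4.001 to 5.05 FPKM), both on the other strand.

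None of the member genes of TIM22 and TIM23 in the inner membrane was called in limma. The unadjusted p was under 0.05 for 1 of the 2 TIM22 genes and 0 of the 6 TIM23 genes, against 4057 of all 10968. TIMM22, the carrier translocase, was at 5.58 and 5.08 FPKM in the controls against 4.55 and 4.36 FPKM after knockdown (-0.21, limma, adjusted p = 0.109). TIMM29, its partner, was at 22.0 and 18.4 FPKM in the controls against 17.7 and 17.5 FPKM after knockdown (-0.18, limma, adjusted p = 0.184), and was called without control 2 (-0.31, adjusted p = 0.0348) but was at -0.060 without control 1 (0.598). Among TIM23 genes the lowest value was that of TIMM23, a channel subunit, at 90.8 and 84.5 FPKM in the controls against 79.7 and 80.6 FPKM after knockdown (-0.13, limma, adjusted p = 0.179), and it was called with columns scaled to one sum (-0.15, adjusted p = 0.0483) but was at -0.075 without control 1 (0.424). The highest was that of TIMM23B, a near-identical copy of TIMM23 whose reads may be divided between both, at 7.95 and 7.77 FPKM in the controls against 9.21 and 8.24 FPKM after knockdown (0.13, limma, adjusted p = 0.258). Its transcripts differed in sign, with log2 fold changes of 0.37 for the non-coding NR_110767 and -0.25 for NM_001290117. TIMM17A, TIMM17B, TIMM21 and the receptor TIMM50 were between -0.081 and 0.059, and 15.5% of the TIMM17B exon bases are shared with PQBP1 (68.9 to 82.5 FPKM) on the other strand.

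Of the 4 member genes of the motor that pulls presequence proteins into the matrix, none was called in limma. The unadjusted p was under 0.05 for 2 of them, against 4057 of all 10968 genes tested. PAM16, a regulator of the motor, was at 11.7 and 14.96 FPKM in the controls against 15.5 and 20.6 FPKM after knockdown. The knockdown libraries were the higher ones (0.41, standard error 0.151, limma, adjusted p = 0.0994), and PAM16 was called without control 2 (0.58, adjusted p = 0.045) but was at 0.24 without control 1 (0.297) and 0.22 without knockdown 2 (0.369). GRPEL1, the nucleotide exchange factor of the matrix HSP70, had 0.21 (limma, adjusted p = 0.0883) and DNAJC19 had 0.12. TIMM44, which tethers the motor to the channel, was at 69.0 and 63.5 FPKM in the controls against 67.4 and 61.5 FPKM after knockdown (-0.040, limma, adjusted p = 0.723).

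The matrix processing peptidase cuts presequences off and is a pair of PMPCA and PMPCB, of which PMPCA was called. PMPCA, the subunit that binds the presequence, rose from 50.7 and 46.8 FPKM to 68.1 and 67.03 FPKM. The control mean was 48.8 ± 2.75 FPKM (SD, n = 2) and the knockdown mean 67.6 ± 0.754 FPKM (SD, n = 2), a log2 fold change of 0.46 (standard error 0.062, limma, adjusted p = 0.00482), called in all 12 fits of gene totals. PMPCB, the catalytic subunit, was at 14.6 and 15.2 FPKM in the controls against 15.6 and 15.3 FPKM after knockdown (0.047, limma, adjusted p = 0.622), and 8.3% of its exon bases are shared with DNAJC2 (32.7 to 35.9 FPKM) on the other strand. A difference between the changes of PMPCA and PMPCB was not tested.

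Of the 7 CHCHD genes other than CHCHD4, CHCHD3 and CHCHD7 fell (28.6%, against 9.99% of all genes tested) and 5 were not called. CHCHD3, a subunit of the MICOS complex that shapes cristae, was at 52.9 and 52.5 FPKM in the controls against 40.4 and 38.8 FPKM after knockdown (-0.40, limma, adjusted p = 0.00557). CHCHD7, a relative of a yeast factor of cytochrome c oxidase assembly, was at 18.6 and 19.4 FPKM in the controls against 14.8 and 13.95 FPKM after knockdown (-0.38, limma, adjusted p = 0.0107). Without knockdown 2 neither was called (0.0514 and 0.0674). CHCHD7 was listed as 11 transcripts, the largest with 36.3% of its signal, so its value rests on their sum.

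CHCHD1, a protein of the mitochondrial ribosome, had the highest log2 fold change of this group and was at 43.4 and 43.6 FPKM in the controls against 49.98 and 46.98 FPKM after knockdown (0.15, limma, adjusted p = 0.111). CHCHD2, the most abundant member, was at 599.2 and 534.97 FPKM in the controls against 587.1 and 558.98 FPKM after knockdown (0.017, limma, adjusted p = 0.891). CHCHD6, another MICOS subunit, and CHCHD5 had -0.016 and -0.046. TIMMDC1, an assembly factor of respiratory complex I that belongs to the protein family of TIM17, TIM22 and TIM23, was at 34.3 and 31.8 FPKM in the controls against 29.2 and 32.1 FPKM after knockdown (-0.11, limma, adjusted p = 0.323), and 29.4% of its exon bases are shared with CD80 on the other strand.

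For CHCHD10, a paralog of CHCHD2, the libraries disagreed on the transcript and not along the groups. NM_001301339 was at 39.97 FPKM in control 1 and 32.6 FPKM in knockdown 2, but at 2.82 FPKM in control 2 and 0.176 FPKM in knockdown 1. NM_213720 was listed at 0 in control 1 and knockdown 2 and was at 25.8 FPKM in control 2 and 41.3 FPKM in knockdown 1. Their sum was at 39.97 and 28.6 FPKM in the controls against 41.5 and 32.6 FPKM after knockdown, so the groups overlapped (0.12, limma, adjusted p = 0.643). MTX1 showed the same kind of exchange, with NM_198883 listed at 0 in control 1 and knockdown 2 and NM_002455 listed at 0 in knockdown 1. Gene totals were therefore read for both.

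**Figure D3:**
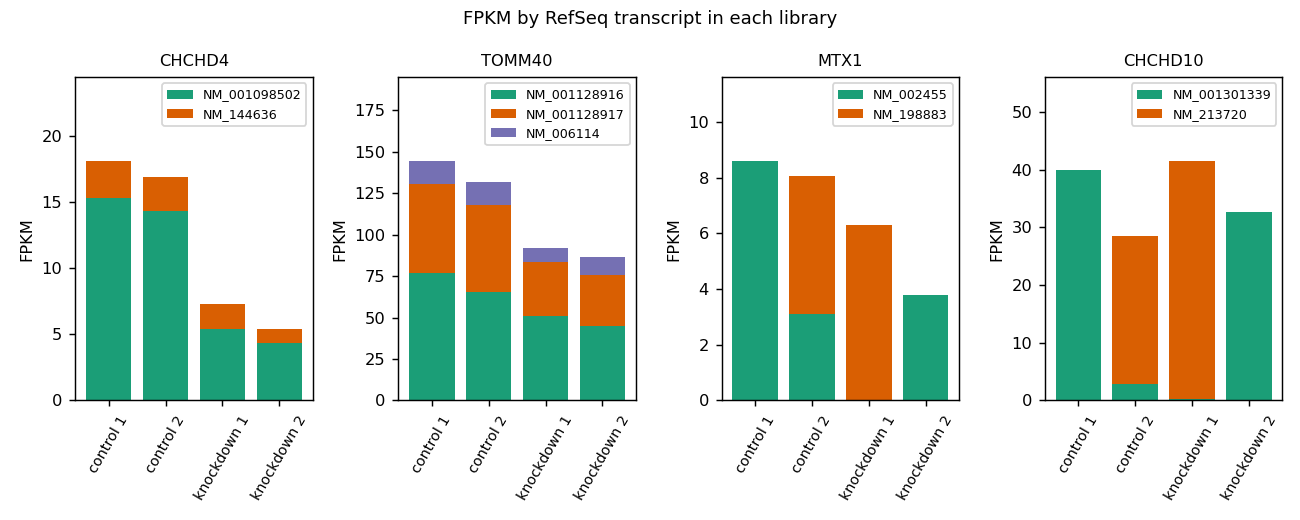
FPKM of each RefSeq transcript of CHCHD4, TOMM40, MTX1 and CHCHD10, stacked, in the 4 libraries. All transcripts of CHCHD4 and TOMM40 have lower FPKM in the knockdown libraries, while MTX1 and CHCHD10 switch transcript between libraries of the same group.

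Genes of the same routes that the naming rule leaves out were read from 3 lists. The first held 15 cysteine-rich proteins of the intermembrane space, the kind that CHCHD4 oxidises. Of these, 4 fell (26.7%, against 9.99% of all genes tested) and 1 rose (6.67%, against 10.9%), with a median log2 fold change of -0.14. In this list 13 of 15 genes lay below 0, against 5186 of all 10968. COX17, which carries copper to cytochrome c oxidase, was at 40.5 and 41.1 FPKM in the controls against 28.9 and 25.7 FPKM after knockdown (-0.56, limma, adjusted p = 0.00402). UQCRH, the hinge protein of respiratory complex III, was at 637.8 and 614.8 FPKM in the controls against 535.8 and 517.1 FPKM after knockdown (-0.25, limma, adjusted p = 0.0303). COX19, another factor of copper delivery, rose from 10.8 and 10.2 FPKM to 13.5 and 13.8 FPKM (0.35, limma, adjusted p = 0.0137). The other called genes, named after their values were seen, were COA6 and TRIAP1 at -0.23 each. Fewer were called without control 1 (3 genes), knockdown 1 (1 gene) or knockdown 2 (1 gene), where the calls over all genes went from 2288 to 1931, 809 and 865.

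Of 15 further import genes in the table, 3 fell (20%, against 9.99% of all genes tested) and 2 rose (13.3%, against 10.9%), with a median of -0.052. AGK, a lipid kinase that is also part of the TIM22 complex, rose from 5.34 and 5.11 FPKM to 7.55 and 7.11 FPKM (0.42, limma, adjusted p = 0.0121). MIPEP, a peptidase that trims proteins after the processing peptidase, fell from 5.43 and 6.50 FPKM to 4.51 and 4.28 FPKM (-0.37, limma, adjusted p = 0.0398). HSPE1, the small subunit of the matrix chaperonin, fell from 192.3 and 192.5 FPKM to 155.3 and 147.9 FPKM (-0.34, limma, adjusted p = 0.00941). XPNPEP3 (-0.33) and GRPEL2 (0.30) were also called and were named after their values were seen. The number called was 7 without control 1 (3 lower and 4 higher), 2 without control 2, 0 without knockdown 1 and 1 without knockdown 2, where 1931, 1668, 809 and 865 of all genes were called. Of the 5 MICOS subunits outside the CHCHD family none was called in limma. An unadjusted p under 0.05 was seen for 1 of them, against 4057 of all 10968 genes tested. IMMT, the core subunit, was at 62.0 and 61.0 FPKM in the controls against 64.6 and 65.5 FPKM after knockdown.

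**Figure D4:**
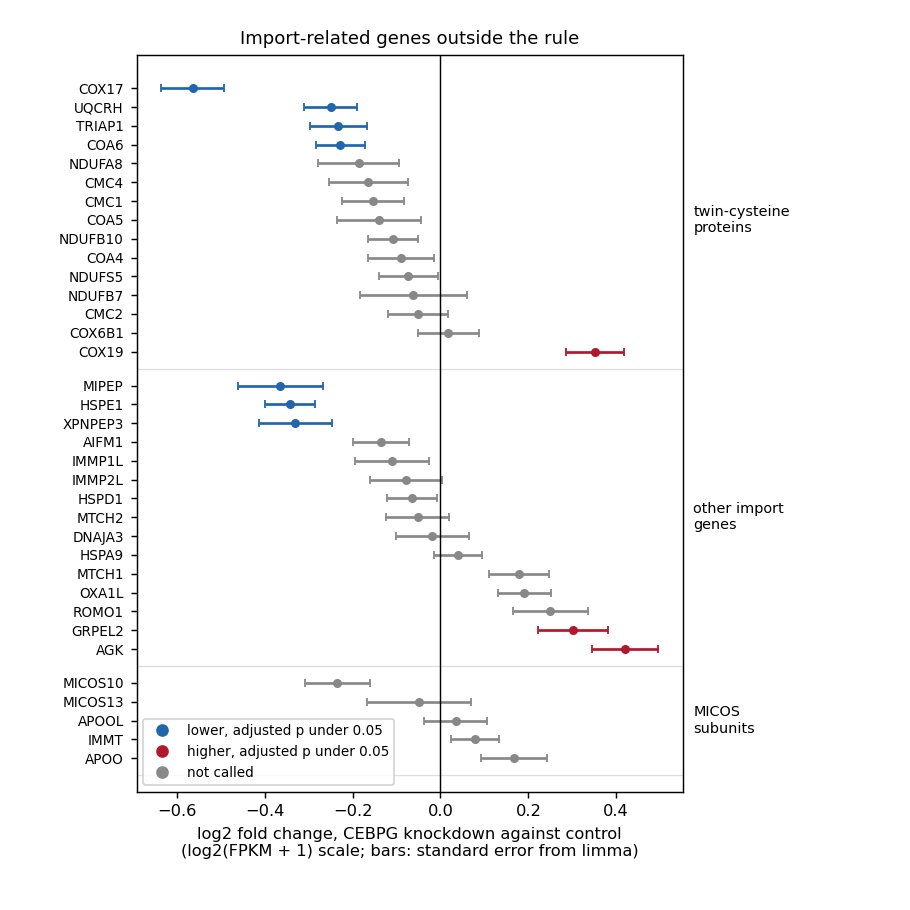
Log2 fold change on the log2(FPKM + 1) scale of import-related genes outside the naming rule, with bars for the standard error from limma. Of the cysteine-rich proteins, 13 of 15 lie below 0, with COX17 at -0.56 and COX19 at 0.35 at the ends, and the 5 MICOS subunits lie between -0.23 and 0.17.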

How the data were processed

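RNA-seq was read in 4 libraries, 2 control and 2 CEBPG knockdown. Total RNA was prepared for sequencing with the TruSeq RNA kit of Illumina, which does not mark strand, and the processing notes of the submitters name HISAT2 2.0.5 and hg38. The authors deposited FPKM values of 29265 RefSeq transcripts. The quantifier and the annotation release are not given in the sources used here. Rows without a value (183) or a symbol (164) were left out, and the others were summed to 16504 symbols. No read counts are given: in 2798 low single-transcript genes the most common ratio between the control libraries, rounded to 2 decimals, made up 1.14%, so whole reads were not recovered and depth is unknown.

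The 10968 genes whose mean reached 1 FPKM were compared on log2(FPKM + 1) with limma 3.58.1 in R 4.3.3, with empirical Bayes moderation, a trend on the mean, and p-values from 2-sided tests adjusted by Benjamini-Hochberg over all genes tested. The study used a count test, which FPKM does not allow. A fold change on this scale understates changes of low genes. Fits were tested on simulated data. Members and lists were chosen with earlier results of these data known. Called members with an absolute log2 fold change of at least 0.5, the highest and lowest of each role, and the 3 largest calls of each list were named by rule, and other called members in addition. Alternatives were another pseudocount, other filters, scalings and moderation, transcripts, a replicate block and each library left out.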

Additional observations from a re-analysis of the deposited data

How the results depend on the processing

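Of the 11 called members, 11 kept their direction over the 12 fits of gene totals and 4 (CHCHD4, TOMM40, TOMM34 and PMPCA) were called in each. Against 9 members lower and 2 higher, there were 5 lower with no filter on low values and 5 lower with moderation without a trend. With transcripts in place of genes, 0 members were lower and 0 higher, and 25 of all 15795 transcripts were called. In that fit 16 of 65 member transcripts had an unadjusted p under 0.05 (limma), against 3213 of all 15795. Leaving out 1 library gave 2 to 8 lower. The 5 called cysteine-rich genes became 2 with no filter, 2 without a trend, 0 with transcripts and 1 to 5 with a library left out. The 5 other import genes became 1 with no filter, 0 with transcripts, 8 with columns scaled to one sum and 0 to 7 with a library left out. The 0 MICOS genes became 1 with a mean of at least 5 FPKM, 1 with median-ratio scaling and 1 with columns scaled to one sum. CEBPG was not called with transcripts (-1.15, limma, adjusted p = 0.0587). TIMM44 ranged from -0.11 to 0.025 with a library left out (0.019 without control 1, 0.025 without knockdown 2). Over all genes, 2288 were called (1096 lower), against 882 (456 lower) with no filter, 1889 (899 lower) without a trend, 2210 with a mean of at least 5 FPKM, 2684 with median-ratio scaling and 2676 with one sum. The cause of these changes was not tested. Scaling moved the median of all genes from 0.015 to -0.00098 and -0.0042.

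The labels give no pairing behind the replicate numbers, and the correlation of deviations between libraries of one number was 0.101. With the replicate block, 12 members were lower, 4 higher, 8 other import genes and 1 MICOS gene were called, against 3440 of all genes. PAM16 (adjusted p = 0.00128) and GRPEL1 (0.0349), genes of the import motor, were called with the block.

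Depth was unknown, and 2 libraries per group limit the precision of every member.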
